A study of Mus musculus with 9 samples.

Results

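Ephrins, Eph receptors, semaphorins, plexins and neuropilins are cell surface and secreted proteins that tell neighbouring cells to attract, repel or hold on to each other. The genes were taken by symbol from the whole count table, and a gene was kept when it had at least 1 CPM (1 count in every 1000000 of the library total) in 4 or more of the 9 libraries. Of 53 symbols in these families, 37 passed, out of 51912 genes in the table: 4 EphA receptors, 3 EphB receptors, 7 ephrins, 15 semaphorins, 6 plexins and 2 neuropilins. The rule did not use the difference between groups, though the families were chosen with earlier results of these data known.

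RNA sequencing was done on tumour organoids, small pieces of mammary tumour epithelium from FVB/NJ mice whose ages the labels do not give. Every sample carried MMTV::PyMT, a transgene in which the mammary tumour virus promoter drives the polyoma middle T oncogene, and the Cre reporter (R26)pCA::mT/mG. The 4 WT samples were Cdh1+/+ and the 5 E-cad-KO samples were Cdh1fl/fl. Both groups were transduced with adeno-Cre, an adenovirus that brings in Cre recombinase, before growing for 48 h in collagen I with b-FGF2. Cre can delete the floxed Cdh1 alleles, which encode E-cadherin, in the cells the virus reached, and uninfected cells stay in the sample. The comparison asked how expression differs once E-cadherin is targeted. The series calls the samples biological replicates but names no animals, so the p-values rest on the spread between samples alone, which may be technical.

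Library totals ran from 44890302 to 64763645 counts, so 1 CPM was 44.9 counts or more. Cdh1, the targeted gene, averaged 189 ± 44.1 CPM over the WT libraries (SD, n = 4) and 91.3 ± 15.4 over the E-cad-KO libraries (SD, n = 5), and the groups did not overlap (log2 fold change -1.05, edgeR adjusted p = 0.0275). That call was lost without WT 3 or E-cad-KO 1, 3, 4 or 5, with adjusted p-values between 0.0644 and 0.0904. Summed markers of the labelled epithelium were high in every library, at 3640 to 5547 CPM for 10 luminal genes. Of 17289 genes tested, 244 were called at an adjusted p under 0.05, which is 1.41% (0.908% higher and 0.503% lower in E-cad-KO), and the number ran from 9 without WT 3 to 334 without WT 4. In these bulk samples fewer cells of a type and less RNA per cell cannot be told apart.

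Eph receptors are receptor tyrosine kinases, and their ligands, the ephrins, sit on the membrane of the facing cell, so both sides can signal when cells touch. Ephrin-A proteins hang on a lipid anchor and ephrin-B proteins span the membrane. Semaphorins act through plexins, which switch small GTPases, and the secreted class 3 semaphorins mostly need a neuropilin as co-receptor. In mammary epithelium these families are known for sorting cells and shaping ducts, and E-cadherin is known to help place the receptor EphA2 at contacts between epithelial cells.

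No member passed the test. By edgeR's quasi-likelihood test with Benjamini-Hochberg adjustment over all genes tested, 0 of 37 members were called, where 1.41% of all genes were, and the smallest adjusted p was 0.076. At an unadjusted p under 0.05 there were 11 members, all with a higher mean in E-cad-KO. Of all tested genes 16.7% were under that limit, 8.74% with a higher mean and 7.99% with a lower one, and of tested genes that meet the same 1 CPM minimum 19.4% were, 10.5% higher and 8.91% lower. DESeq2 called 6 members, all higher, against 8.46% of the genes it gave an adjusted p (5.01% higher, 3.45% lower). Limma-voom, run with quality weights that let libraries count unequally, called 3, all higher, against 2.96% (1.72% higher, 1.23% lower). Nrp2 and Plxnb2 were the only members whose 2 groups did not overlap at this scaling, 2 of 37 beside 8.11% of all tested genes (4.28% higher, 3.83% lower) and 9.51% of those at the 1 CPM minimum (5.14% higher, 4.37% lower). On unscaled library totals, a scaling chosen after the data were seen, 7 members did not overlap, all higher, beside 8.83% of all tested genes (6.07% higher, 2.76% lower). Positive log2 fold changes were found for 22 members and negative ones for 15, with a median of 0.08 beside -0.01 over all genes tested. Of all tested genes 48.0% had a positive one, and of those at the 1 CPM minimum 50.6% had.

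The promoters of the members without overlap are shown because those genes had the clearest separation between the groups. Each is the stretch just upstream of the start in the RefSeq annotation of GRCm38.p6, cut where the GENCODE M21 gene begins, and capitals mark GC boxes, GGGCGG or CCGCCC, the classic binding sequence of Sp1 family factors.
Nrp2, chr1:62703067-62703284, plus strand: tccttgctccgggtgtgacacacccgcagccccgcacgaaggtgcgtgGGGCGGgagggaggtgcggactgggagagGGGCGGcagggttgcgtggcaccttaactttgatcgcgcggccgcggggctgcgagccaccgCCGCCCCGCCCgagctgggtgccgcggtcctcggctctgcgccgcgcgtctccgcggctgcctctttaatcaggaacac
Plxnb2, chr15:89180789-89181038, minus strand: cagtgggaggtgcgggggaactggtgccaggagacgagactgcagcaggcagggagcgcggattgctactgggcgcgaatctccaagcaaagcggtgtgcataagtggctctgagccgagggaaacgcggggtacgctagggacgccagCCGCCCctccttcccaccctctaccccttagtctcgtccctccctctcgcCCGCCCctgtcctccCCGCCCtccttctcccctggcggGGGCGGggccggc
Each stretch held 4 GC boxes, 2 of which overlap in Nrp2. Neither printed stretch held the TEAD sequence GGAATG, the AP-1 sequence TGANTCA or the E-box CACCTG on either strand. Plxnb2 has another RefSeq promoter, not printed here, that holds CACCTG.

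RefSeq promoters were found for 33 of the 37 members, 46 promoters in all, and not for Plxna1, Sema3b, Sema3f and Sema6a. In the 250 bases upstream of the start, searched on both strands, a GC box stood in 38 of the 46 (82.6%) and in 32.7% of the 32851 promoters in the table. The member promoters were richer in G and C, with a median of 64.4% beside 52.4% over all. GGAATG stood in 6 of 46 (12.6% of all promoters), TGANTCA in 2 (6.75% of all) and CACCTG in 6 (17.2% of all). Efnb2 and Epha1 each had both GGAATG and CACCTG among their promoters. A match describes letters only and does not show binding.

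**Figure D1:**
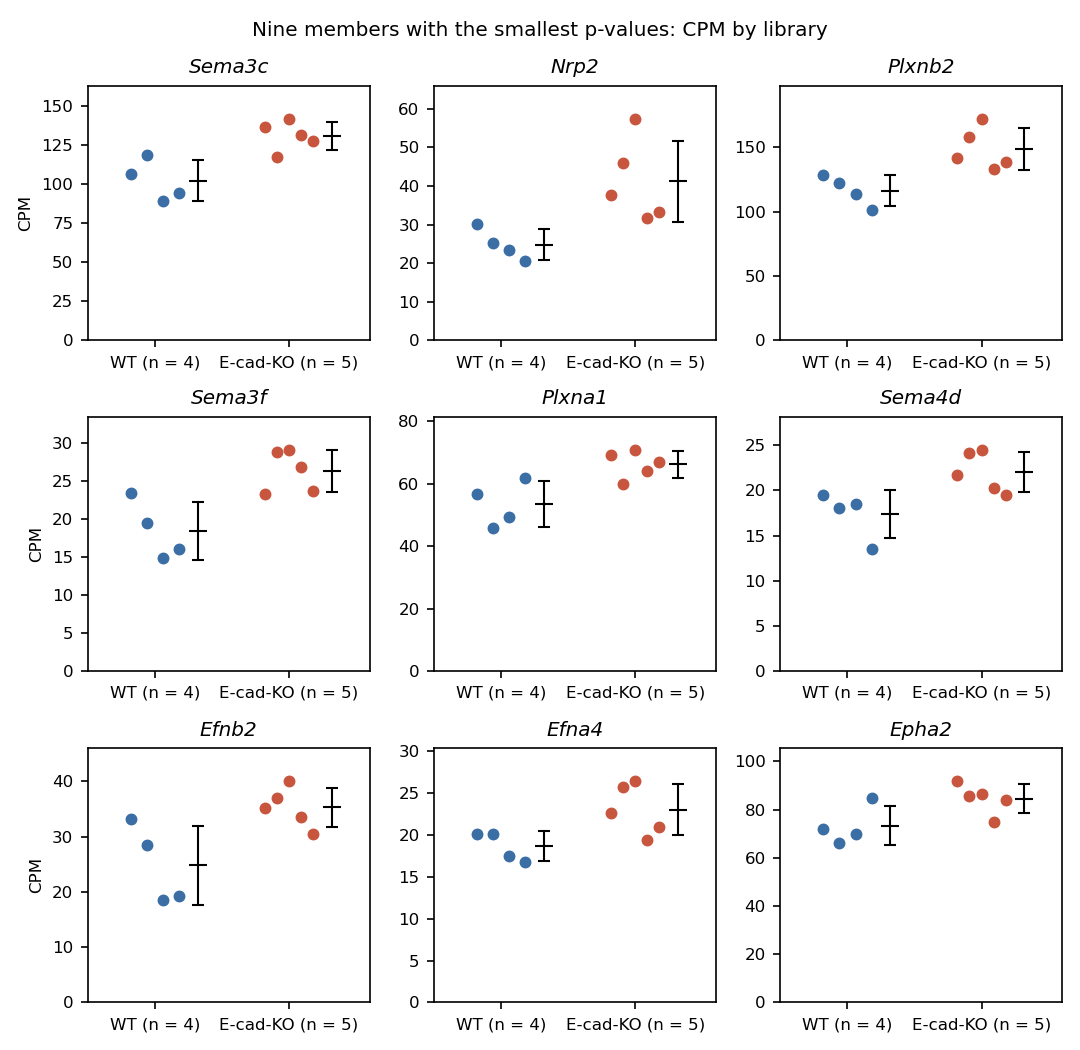
CPM (vertical axis, linear, from 0) of the 9 members with the smallest p-values, with 1 point per library and the mean ± SD drawn beside each group. Nrp2 and Plxnb2 show all 5 E-cad-KO points above all 4 WT points, and in the other 7 panels the groups overlap.

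Among the receptors for semaphorins, the neuropilin gene Nrp2 (ENSMUSG00000025969, chromosome 1, 62703285 to 62818695) stood furthest apart. Nrp2, a co-receptor for Sema3f and Sema3c and also for the growth factor VEGF-C, was at 30.2, 25.2, 23.5 and 20.4 CPM in WT 1 to 4. In E-cad-KO 1 to 5 it was at 37.6, 46.0, 57.3, 31.7 and 33.3 CPM. Every E-cad-KO library was above every WT library, the closest pair being E-cad-KO 4 and WT 1. Its log2 fold change reached 0.73 (SE 0.18, edgeR adjusted p = 0.0855), a 1.66-fold ratio, and the largest of the 37. Leaving out single libraries moved it between 0.58 and 0.84, and DESeq2 called it (adjusted p = 0.00257).

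Nrp1, the other neuropilin gene and a receptor of VEGF-A and Sema3a, spread far more within WT than between the groups. Nrp1 had 1.41, 3.06, 5.25 and 12.2 CPM in WT 1 to 4 and 5.69, 3.31, 5.40, 6.62 and 7.85 CPM in E-cad-KO 1 to 5. WT held both the lowest and the highest library, an 8.65-fold span, and the log2 fold change was 0.08 (SE 0.53). Over the alternatives its value ran from -0.23 to 0.83, and the sign turned without WT 1, WT 2 or E-cad-KO 5.

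Of the 6 plexins, Plxnb2 (ENSMUSG00000036606, chromosome 15, 89155549 to 89180788) had the smallest p. It encodes a receptor of class 4 semaphorins and was the member with the highest mean CPM. Plxnb2 was at 128, 122, 114 and 101 CPM in WT 1 to 4 and at 142, 158, 172, 133 and 138 CPM in E-cad-KO 1 to 5. The groups did not overlap, though WT 1 and E-cad-KO 4 were close. Its log2 fold change of 0.35 (SE 0.09) had an edgeR adjusted p of 0.088, and DESeq2 called it (adjusted p = 0.0104).

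Plxna1 (chromosome 6, 89316314 to 89362620), which pairs with neuropilins to receive class 3 semaphorins, came next. Plxna1 had 56.8, 45.9, 49.4 and 61.9 CPM in WT 1 to 4, and 69.2, 59.7, 70.7, 64.2 and 66.8 CPM in E-cad-KO 1 to 5. E-cad-KO 2 lay below WT 4 and the other E-cad-KO libraries lay above all of WT. By edgeR this was a log2 fold change of 0.31 (SE 0.09, adjusted p = 0.123). On all 9 libraries DESeq2 and limma-voom (adjusted p = 0.0305) called it. By edgeR without WT 4 it was called at 0.38 (edgeR adjusted p = 0.0467), where 1.91% of all genes were called, 1.1% higher and 0.806% lower. Its exons overlap Gm26811 on the other strand.

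The other class A plexins stood on the other side of 0. Plxna2 was at 2.21, 2.41, 2.44 and 5.53 CPM in WT 1 to 4 and at 2.28, 2.23, 1.81, 2.01 and 2.33 CPM in E-cad-KO 1 to 5. WT 4 held the highest level of all libraries, and the remaining 8 lay within a narrow band. The log2 fold change of Plxna2, -0.56 (SE 0.27, edgeR adjusted p = 0.342), shrank to -0.14 without WT 4. Plxna3 stood at -0.20 (SE 0.10). Plxnb1, a receptor for Sema4d, stood at 0.13 (SE 0.09) with 118 ± 14.5 CPM over the WT libraries (SD, n = 4) and 129 ± 8.87 over the E-cad-KO libraries (SD, n = 5). Plxnd1, a receptor for Sema3e known from blood vessels, had 3.04, 7.11, 8.94 and 14.5 CPM in WT 1 to 4, a spread that held all 5 E-cad-KO libraries (4.43 to 7.96 CPM) inside it.

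Semaphorins were the largest family and the only one in which most log2 fold changes were negative, 10 of 15, with a median of -0.07. Of all genes tested 48.0% were positive. None of the semaphorins was called by edgeR. Beside 16.7% of all genes tested, 3 semaphorins had an unadjusted p under 0.05. Those were the secreted ligands Sema3c and Sema3f and the membrane ligand Sema4d, each with a higher mean in E-cad-KO.

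Sema3c (ENSMUSG00000028780, chromosome 5, 17574281 to 17730268) had the smallest p of all members. It was at 106, 119, 89.6 and 94.7 CPM in WT 1 to 4 and at 136, 118, 142, 132 and 128 CPM in E-cad-KO 1 to 5. WT 2 and E-cad-KO 2 crossed by about 1 CPM, and the other libraries kept the groups apart. With a log2 fold change of 0.36 (SE 0.09), edgeR gave an adjusted p of 0.076. DESeq2 and limma-voom called it (adjusted p = 0.00624 and 0.0491). Over all alternatives the edgeR, DESeq2 and limma-voom values stayed between 0.30 and 0.44.

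Sema3f (chromosome 9, 107681500 to 107710475), the classic ligand of Nrp2, followed. Sema3f held 23.4, 19.5, 14.8 and 16.0 CPM in WT 1 to 4 and 23.3, 28.8, 29.1, 26.8 and 23.7 CPM in E-cad-KO 1 to 5. Only WT 1 reached the E-cad-KO range. Its log2 fold change of 0.51 (SE 0.13) had an edgeR adjusted p of 0.088. On all 9 libraries DESeq2 (adjusted p = 0.0091) and limma-voom called it. By edgeR without WT 1 it was called at 0.65 (edgeR adjusted p = 0.0409), beside 0.698% of all genes called, 0.503% higher and 0.194% lower. Its neighbour Sema3b, 72.3 kb away on the same strand, stood at -0.18 (SE 0.19).

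Sema4d, a membrane ligand of plexin-B receptors, was at 19.5, 18.02, 18.5 and 13.6 CPM in WT 1 to 4. Its E-cad-KO libraries 1 to 5 were at 21.7, 24.1, 24.4, 20.3 and 19.4 CPM. WT 1 and E-cad-KO 5 were level and the groups touched there only. For Sema4d edgeR gave 0.34 on the log2 scale (SE 0.11, adjusted p = 0.171).

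Sema4g had the lowest log2 fold change of the semaphorins. It had 15.4, 10.6, 9.27 and 7.12 CPM in WT 1 to 4 and 6.90, 9.68, 9.27, 6.86 and 5.07 CPM in E-cad-KO 1 to 5. WT 1 was the highest library and the groups overlapped widely (log2 fold change -0.49, SE 0.24, edgeR adjusted p = 0.348). Of the other class 4 genes, Sema4b stood at 0.16, Sema4c at -0.11 and Sema4a at -0.15. All 3 class 6 genes, which encode membrane ligands of plexin-A receptors, were negative: Sema6a at -0.07, Sema6c at -0.06 and Sema6d at -0.38. Sema5a stood at -0.05 and Sema3d at -0.09, while Sema3e stood at 0.16, and the standard errors of Sema3d and Sema3e were 0.54 and 0.32.

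Sema7a, a lipid-anchored semaphorin that binds integrins and plexin-C1, varied 6.95-fold within WT. It was at 2.24, 4.05, 10.3 and 15.6 CPM in WT 1 to 4 and between 4.75 and 7.77 CPM in the 5 E-cad-KO libraries. The E-cad-KO values lay inside the WT range. Its log2 fold change, -0.44 (SE 0.48), was 0.10 without WT 4.

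**Figure D2:**
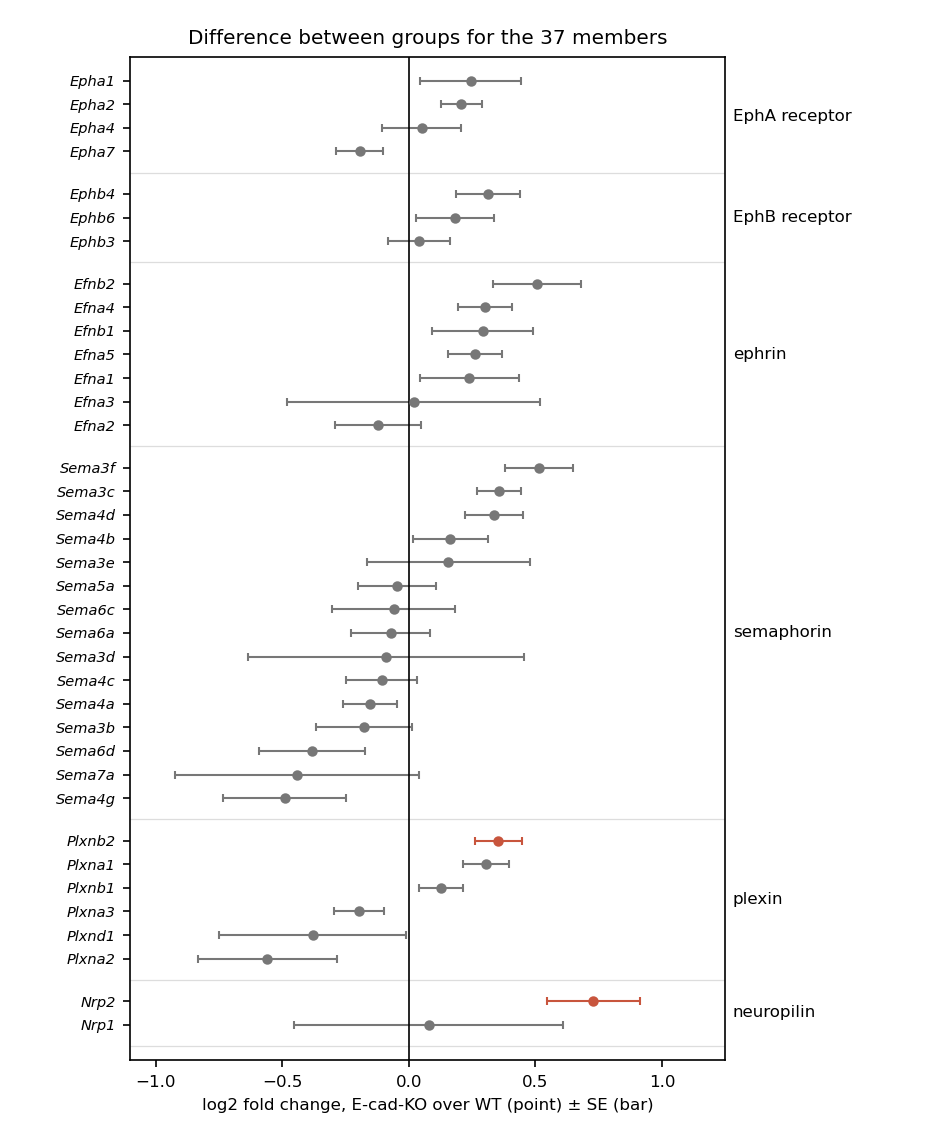
Log2 fold change of E-cad-KO over WT (horizontal axis, point) with its standard error (bar) for the 37 members, by family. Red marks the 2 genes whose libraries did not overlap between the groups, Nrp2 at 0.73 and Plxnb2 at 0.35, and grey marks the rest, with Efna3, Nrp1, Sema3d and Sema7a showing the widest bars.

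Ephrins, the ligands, had a positive log2 fold change in 6 of 7 cases, beside 48.0% of all genes tested, with a median of 0.26. None was called by edgeR and 3 had an unadjusted p under 0.05, beside 16.7% of all genes tested. Efnb2 (chromosome 8, 8617434 to 8661242) encodes a transmembrane ephrin known as the partner of EphB4. Efnb2 had 33.1, 28.5, 18.6 and 19.2 CPM in WT 1 to 4 and 35.2, 37.04, 40.0, 33.6 and 30.5 CPM in E-cad-KO 1 to 5. Only WT 1 reached into the E-cad-KO range, above E-cad-KO 5. By edgeR the difference was 0.51 on the log2 scale (SE 0.17, adjusted p = 0.175), and DESeq2 called it (adjusted p = 0.046). Efnb2 lies 97.9 Mb and Nrp1 21.7 Mb from Cdh1 on the same chromosome.

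Efna4 and Efna5 encode lipid-anchored ephrins. Efna4 was at 20.2, 20.2, 17.5 and 16.8 CPM in WT 1 to 4, and at 22.6, 25.7, 26.4, 19.4 and 20.9 CPM in E-cad-KO 1 to 5. E-cad-KO 4 alone fell within the WT range (log2 fold change 0.30, SE 0.11, edgeR adjusted p = 0.184). Its exons overlap 4731419I09Rik on the other strand. Efna5 was at 26.6, 23.1, 23.2 and 20.8 CPM in WT 1 to 4 and at 27.1, 33.0, 30.7, 26.2 and 23.6 CPM in E-cad-KO 1 to 5, with E-cad-KO 4 and 5 inside the WT range. Its log2 fold change reached 0.26 (SE 0.11, edgeR adjusted p = 0.241).

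Efna1, a ligand of EphA2, was the ephrin with the highest mean CPM. It had 45.4, 40.6, 34.9 and 22.2 CPM in WT 1 to 4 and 35.4, 48.9, 49.9, 37.8 and 39.3 CPM in E-cad-KO 1 to 5. The groups overlapped, with WT 4 lowest (log2 fold change 0.24, SE 0.19, edgeR adjusted p = 0.595). Efnb1 stood at 0.29 (SE 0.20) and Efna2 at -0.12 (SE 0.17).

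Efna3 lies between Efna1 and Efna4 on chromosome 3, 32.8 kb from the first and 10.4 kb from the second. It was at 26.2, 15.4, 9.76 and 6.30 CPM in WT 1 to 4 and at 8.64, 21.9, 25.2, 9.34 and 7.96 CPM in E-cad-KO 1 to 5. Both groups thus held libraries near 25 CPM and libraries under 10 CPM, and the log2 fold change was 0.02 (SE 0.50). Its exons overlap Gm15998 on the other strand.

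Eph receptors had a positive log2 fold change in 6 of 7 cases, beside 48.0% of all genes tested, with a median of 0.18. None was called by edgeR and 2 had an unadjusted p under 0.05, beside 16.7% of all genes tested. Ephb4 (chromosome 5, 137350109 to 137378669), the receptor of ephrin-B2, was at 99.9, 121, 110 and 76.5 CPM in WT 1 to 4. In E-cad-KO 1 to 5 it was at 136, 132, 139, 109 and 116 CPM. E-cad-KO 4 and 5 lay within the WT range, and WT 4 was lowest (log2 fold change 0.31, SE 0.13, edgeR adjusted p = 0.242). Its exons overlap Zan on the other strand.

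Epha2 (chromosome 4, 141301240 to 141329384) had 71.8, 66.2, 70.0 and 84.9 CPM in WT 1 to 4. Its E-cad-KO libraries 1 to 5 had 91.8, 85.7, 86.6, 74.9 and 83.8 CPM. WT 4 was the only WT library above E-cad-KO 4, and it passed E-cad-KO 5 as well. For Epha2 edgeR gave 0.21 on the log2 scale (SE 0.08, adjusted p = 0.234).

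Epha7 was the one Eph receptor with a negative value. It was at 38.1, 43.7, 37.4 and 33.0 CPM in WT 1 to 4 and at 30.3, 35.1, 30.6, 38.0 and 32.3 CPM in E-cad-KO 1 to 5, with E-cad-KO 2 and 4 inside the WT range (log2 fold change -0.19, SE 0.09, edgeR adjusted p = 0.333). Epha1 stood at 0.24 (SE 0.20) and Ephb6, 738 kb from it and a receptor whose kinase domain is inactive, at 0.18 (SE 0.15). Epha4 (0.05, SE 0.16) and Ephb3 (0.04, SE 0.12) were closest to 0. Exons of Epha1 overlap Zyx on the other strand, and those of Plxnb1 and Sema4c overlap Gm7628 and D430040D24Rik.

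Known ligand and receptor pairs can be read side by side as log2 fold changes, none of them called by edgeR, though DESeq2 called Efnb2, Nrp2, Plxna1, Plxnb2, Sema3c and Sema3f. The pairs were picked after the values were seen and are not a full list. For Sema3f and Sema3c they were 0.51 and 0.36, with 0.73 for Nrp2 and 0.31 for Plxna1. The other neuropilin gene, Nrp1, stood at 0.08, and the class A plexins Plxna2 and Plxna3 at -0.56 and -0.20. Among class 4 semaphorins Sema4d stood at 0.34, Sema4b at 0.16, Sema4c at -0.11, Sema4a at -0.15 and Sema4g at -0.49, with 0.35 for the receptor gene Plxnb2 and 0.13 for Plxnb1. Efnb2 stood at 0.51 with Ephb4 at 0.31, and Efna1 at 0.24 with Epha2 at 0.21. For Sema3e the value was 0.16 while its receptor Plxnd1 stood at -0.38, and Sema6d stood at -0.38 with 0.31 for Plxna1.

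Levels can be compared between genes only per length, so CPM was divided by the length of the longest annotated transcript in kb, which need not be the one expressed. Over all 9 libraries the highest mean levels were those of Ephb4 (26.6 CPM per kb), Efna1 (24.1), Sema3c (21.6), Plxnb2 (20.7) and Epha2 (20.3). The order of these 5 was loose: Ephb4 was above Efna1 in 8 libraries, but Sema3c was above Plxnb2 in only 5 of 9 and Plxnb2 above Epha2 in 5 of 9. Epha2 was above the sixth gene, Plxnb1 (14.4), in all 9. A middle band of 20 genes ran down to Sema6a at 4.03 CPM per kb, and the remaining 12 ran from Sema7a at 2.08 down to Plxna2 at 0.234.

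Within families the levels differed widely. Ephb4 was above Ephb6 and Ephb3 (10.3 and 8.49 CPM per kb), and among neuropilins Nrp2 stood at 5.05 and Nrp1 at 1.55. Plxnb2 and Plxnb1 led the plexins, Plxna1 followed at 6.70 and Plxnd1 was at 1.06. Among class 3 semaphorins Sema3c was far above Sema3f (6.73), and Sema3b, Sema3d and Sema3e were all under 1 CPM per kb. Sema4c (10.6) led class 4.

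**Figure D3:**
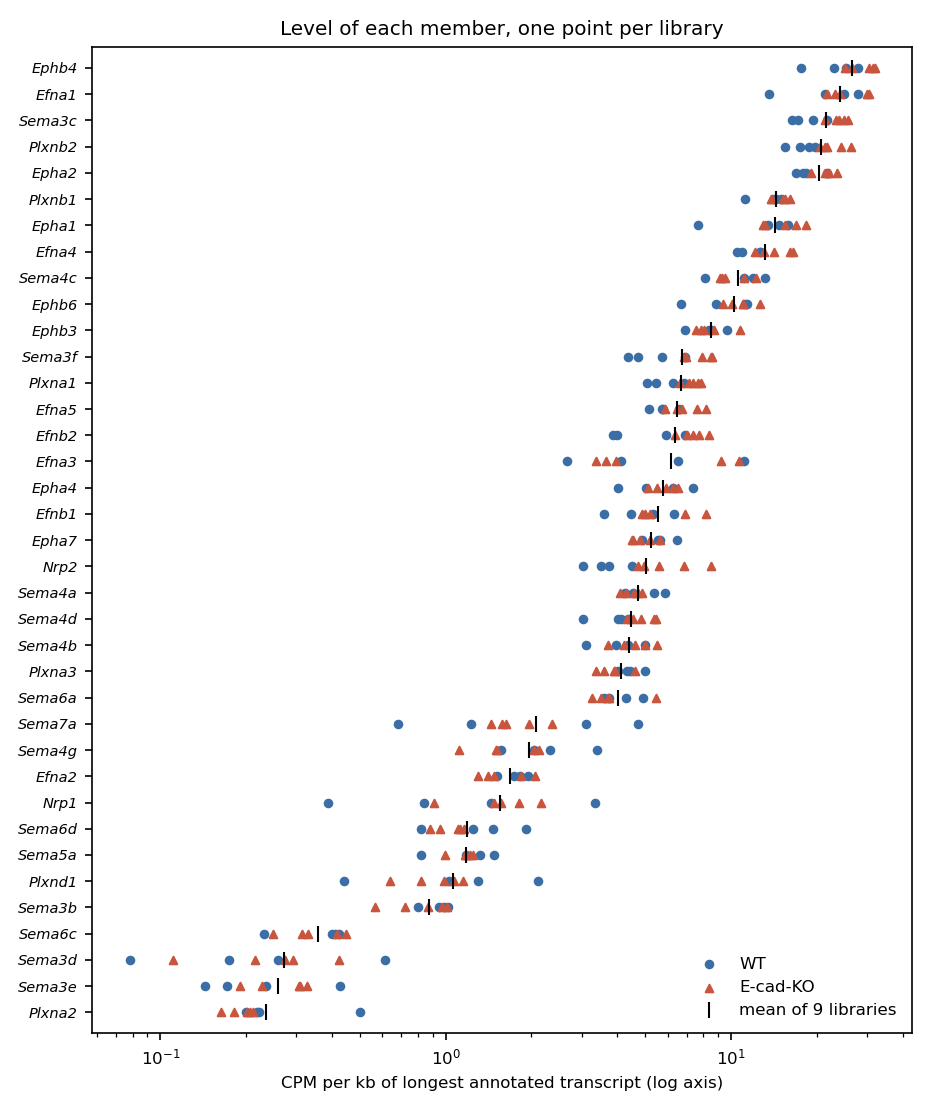
CPM per kb of the longest annotated transcript (horizontal log axis) for each member, ordered by the mean of the 9 libraries (black tick), with WT as circles and E-cad-KO as triangles. Ephb4 is highest at a mean of 26.6 and Plxna2 lowest at 0.234, and the points of Nrp1, Sema3d and Sema7a are the most scattered.

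The 16 symbols under the minimum were Efnb3, Epha3, Epha5, Epha6, Epha8, Epha10, Ephb1, Ephb2, Plxna4, Plxnb3, Plxnc1, Sema3a, Sema3g, Sema4f, Sema5b and Sema6b. Just inside it, Sema3d had 1 CPM in 7 libraries and Sema3e in 8, and every other member had it in all 9. Just outside, Epha3, Ephb2, Sema3a and Sema6b had it in 3. On the scaled values used elsewhere, Epha3 ran from 0.102 CPM in WT 1 to 4.02 CPM in WT 4, and Sema3a from 0.221 CPM in WT 1 to 2.90 CPM in WT 4. Epha6, Epha8 and Epha10 were at 0.0351 CPM or less in every library. Sema4f averaged 0.344 ± 0.155 CPM over the WT libraries (SD, n = 4) and 0.764 ± 0.290 over the E-cad-KO libraries (SD, n = 5), the largest log2 difference among the low genes tested (log2 fold change 1.14, SE 0.40, edgeR adjusted p = 0.187). Of the 16, 11 passed the filter of the test (not Epha6, Epha8, Epha10, Sema3g and Sema5b), of which 0 were called by edgeR and 2 had an unadjusted p under 0.05, Sema4f and Plxnb3 (log2 fold change -0.80).

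Libraries within a group differed more for some members than the groups did. WT 4 held the highest value of 9 members (Nrp1, Plxna2, Plxnd1, Sema3b, Sema3d, Sema3e, Sema5a, Sema6d and Sema7a) and the lowest of 16, among them Nrp2, Plxnb2, Ephb4, Epha1 and Efna1. WT 1 was lowest for Nrp1, Plxnd1, Sema3d, Sema5a, Sema6d and Sema7a. E-cad-KO 3 held the highest value of 13 members, Nrp2, Sema3c, Sema3f, Plxna1, Plxnb2 and Efnb2 among them.

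Markers of other cell types moved with these libraries. Macrophage markers summed to 368 CPM in WT 4 and to 17.6 CPM in WT 1, with 25.8 to 153 CPM in E-cad-KO, and 11 of the 12 were highest in WT 4. Lyz2 made up most of the sum, and Cx3cr1, Fcgr1 and Itgam stayed under 1 CPM in every library. Endothelial markers summed to 6.91 to 18.3 CPM in WT and 5.80 to 10.2 CPM in E-cad-KO, with 6 of 11, Kdr, Tek, Tie1, Vwf, Cldn5 and Plvap, under 1 CPM everywhere. Fibroblast markers summed to 996 to 2195 CPM in WT and 1327 to 1823 CPM in E-cad-KO, with 7 of 11 highest in WT 4 and all 11 lowest in WT 1, and Postn made up most of the sum.

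The Nrp1 levels ordered the top 3 libraries as the macrophage sum did, WT 4, E-cad-KO 5 and E-cad-KO 4, with WT 1 last in both. Plxnd1 and Sema7a ordered WT 4, then WT 3, at the top as the endothelial sum did. Both genes were lowest in WT 1, as were the macrophage sum and all 11 fibroblast markers, 7 of which were highest in WT 4. The endothelial sum was lowest in E-cad-KO 2. The part of macrophages, endothelial cells and fibroblasts in the values of Nrp1, Plxnd1 and Sema7a was not tested. Lymphocyte markers other than Trbc2 stayed under 1 CPM, with Cd3e at 0 in all libraries, and all 6 adipocyte markers were under 1 CPM. No marker of the lists named here was called by edgeR.

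The myoepithelial marker sum ran from 2552 CPM in WT 4 to 12480.5 CPM in WT 1, and from 3677 to 8432 CPM in E-cad-KO. It was carried by the basal keratins Krt14, Krt5 and Krt17, while the contractile genes Acta2, Myh11, Cnn1, Oxtr and Mylk were lowest in WT 1. Of the 9 markers 4 were highest in WT 4, where the sum was lowest. Trp63, a marker on the list that is not a keratin, went with the sum. It was at 109, 101, 83.0 and 46.2 CPM in WT 1 to 4. In E-cad-KO 1 to 5 it was at 83.3, 101, 116, 78.1 and 75.3 CPM. Whether the sum reads basal keratin level or the share of the cell type was not tested. The 4 libraries with the most Efna3, WT 1, E-cad-KO 3, E-cad-KO 2 and WT 2, were also the 4 with the largest myoepithelial sum, and WT 4 was last for both. Nrp2 followed the sum within WT, and E-cad-KO 3 and 2 led both within E-cad-KO. WT 1 had the largest sum of all libraries and less Nrp2 than every E-cad-KO library. The part of myoepithelial cells, or of basal keratin level, in the values of Nrp2 and Efna3 was not tested. Luminal markers summed to 3640 to 4946 CPM in WT and 4351 to 5547 CPM in E-cad-KO, lowest in WT 4. The luminal genes were not alike: Krt8 was at most 1328 CPM in WT and at least 1393 CPM in E-cad-KO, and Cldn7 at most 93.4 and at least 104 CPM, so that both separated the groups as Nrp2 and Plxnb2 did, though neither was called by edgeR. Elf5 ran from 300.4 to 412 CPM in WT and from 249 to 325 CPM in E-cad-KO, and Krt19 from 307 to 756 CPM in WT and from 271 to 565 CPM in E-cad-KO. The part of luminal cells in the members' values was not tested.

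**Figure D4:**
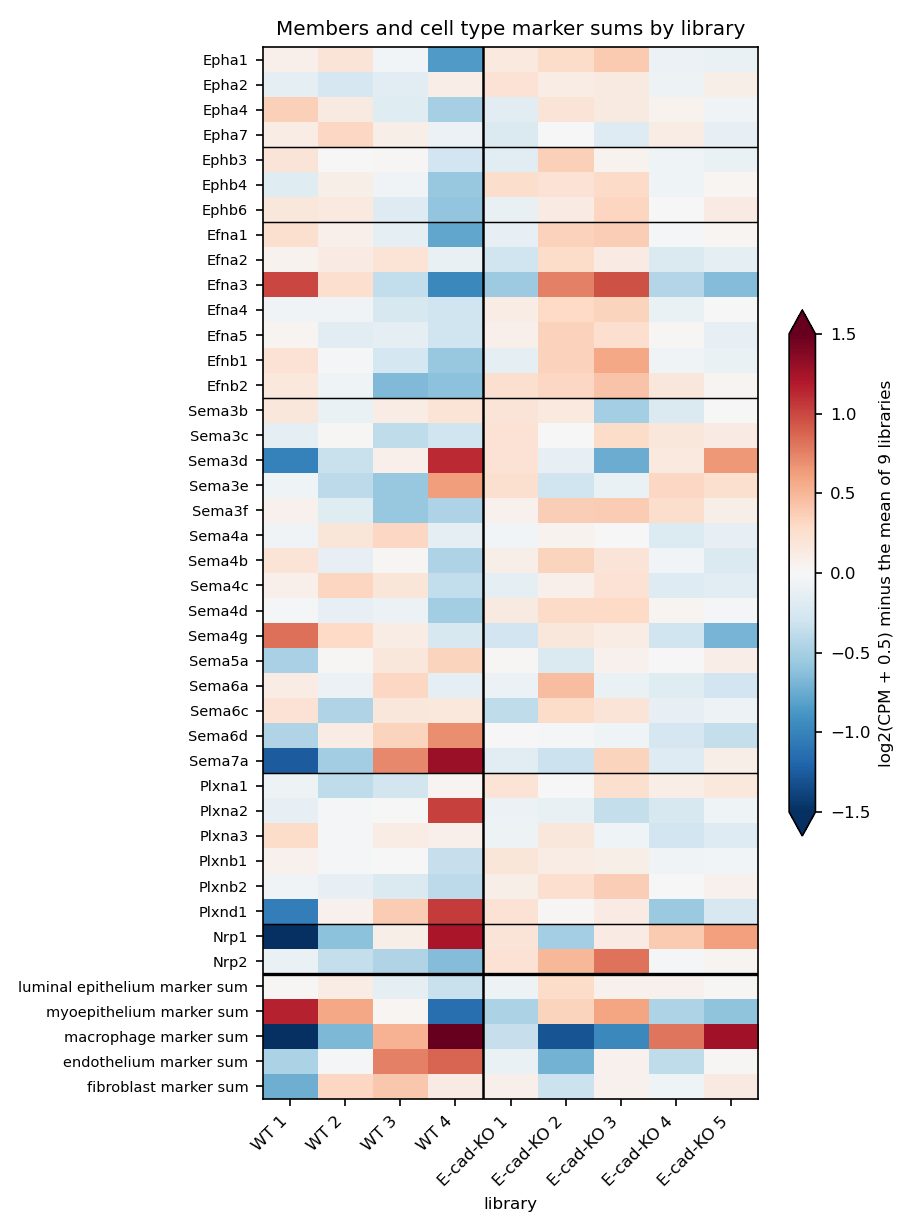
Each row is a member, or the summed CPM of a cell type marker list at the bottom, and each column a library. Colour is log2(CPM + 0.5) minus the row's mean over the 9 libraries, with the scale ending at 1.5 in each direction. WT 4 and WT 1 are opposite in colour for Nrp1, Plxnd1, Sema3d and Sema7a as for the macrophage sum. Efna3 is highest in the same 4 libraries as the myoepithelial sum, which the basal keratins Krt14, Krt5 and Krt17 carry.

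Partner genes were read from the same test in 4 lists. Of all genes tested, 16.7% had an unadjusted p under 0.05, 8.74% with a higher mean and 7.99% with a lower one. A positive log2 fold change was found for 48.0% of all genes tested. Of the 30 genes that carry Eph and ephrin signals, 21 had a positive log2 fold change, 1 was called higher by edgeR and 0 lower, 8 had an unadjusted p under 0.05 (7 higher), and the median was 0.05. The called gene was Kalrn, which encodes kalirin, a guanine nucleotide exchange factor that acts downstream of EphB receptors. Kalrn rose from 8.64, 12.4, 10.7 and 12.6 CPM in WT 1 to 4 to 21.1, 14.8, 18.8, 17.2 and 17.7 CPM in E-cad-KO 1 to 5. No library overlapped, and the log2 fold change reached 0.69 (SE 0.13, edgeR adjusted p = 0.0389, where 0.908% of all genes were called higher). The call was lost in 8 of 9 fits without 1 library, all but that without WT 4, with edgeR adjusted p-values up to 0.124 (without WT 3). Abl2, a cytoskeletal tyrosine kinase, stood at 0.23 (edgeR adjusted p = 0.088), the phosphatase gene Ptpn11 at 0.24 (0.0958) and Acp1, a small phosphatase that acts on Eph receptors, at -0.16 (0.149), and exons of Acp1 overlap Alkal2.

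Of 28 tested genes that carry plexin and neuropilin signals (30 listed), 19 were positive and 0 were called by edgeR, with 2 at an unadjusted p under 0.05 and a median of 0.07. They were Rnd3, a small G protein without GTPase activity, at 0.22 and Rras2 at 0.21, and Erbb2, a kinase that associates with plexin-B receptors, stood at 0.26 and overlaps Mien1. In the netrin, Slit and repulsive guidance families 11 of 19 tested were positive and 0 called, with 3 at an unadjusted p under 0.05. Slit2 stood at 0.47 (SE 0.16), Ntn1 at 0.29 (SE 0.11) and Neo1, a netrin receptor, at 0.26 (SE 0.10). Of 8 genes for VEGF ligands and receptors, which share the neuropilins, 4 were positive and 0 called, with 1 at an unadjusted p under 0.05. That was Vegfc, a ligand of Nrp2, with 5.63 ± 1.75 CPM over the WT libraries (SD, n = 4) and 8.88 ± 0.983 over the E-cad-KO libraries (SD, n = 5), which did not overlap (log2 fold change 0.66, SE 0.20, edgeR adjusted p = 0.133). Its receptor genes Flt4 and Kdr were under 1 CPM in every library and stood at 0.57 and -0.47. Of the 85 tested partner genes, 3 did not overlap with E-cad-KO higher (Abl2, Kalrn and Vegfc) and 1 with E-cad-KO lower (Acp1). Of all tested genes 4.28% did not overlap with E-cad-KO higher and 3.83% with E-cad-KO lower. By DESeq2 5 of the 85 tested partner genes were called, Abl2, Acp1, Kalrn, Ptpn11 and Vegfc, beside 8.46% of all genes with an adjusted p. By limma-voom 2 were called, Abl2 and Kalrn, beside 2.96% of all genes tested.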

How the data were processed

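RNA from whole frozen collagen gels was purified with the RNeasy kit and sequenced from stranded TruSeq mRNA libraries, per the labels' protocols. The deposited values are raw read counts per gene, which the authors made with Bowtie2, TopHat2 and HTSeq on GRCm38, per the submitters' processing notes. For versions, annotation release and strand setting the sources used here give nothing, so a gene overlapping another on the opposite strand may share its reads.

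Symbols matched 51633 of 51912 gene IDs, and genes without one held at most 0.0534% of a library. Libraries of a group all differed by more than sampling noise. Groups were compared with edgeR 4.0.16 in R 4.3.3 (TMM factors, default filterByExpr, robust quasi-likelihood F-test, group as the only term, two-sided), adjusted by Benjamini-Hochberg over 17289 genes and called under 0.05. SE is the log2 fold change over the root of F. Printed CPM used TMM-scaled totals, and the rule's minimum uses unscaled ones. DESeq2 1.42.0 and limma-voom with library quality weights (limma 3.58.1) were alternatives. Positions, lengths and overlaps are from GENCODE M21. Routines were tested on simulated counts.

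Members and lists were chosen with earlier results of these data known. Named in full were called members, further members by p up to 14, and the highest member of each family by mean CPM, and of each partner list the called genes and up to 3 more. Genes added after their values were seen were Nrp1, Plxnd1, Sema7a, Efna3, Sema4f and Plxnb3, and the luminal markers Krt8, Cldn7, Elf5 and Krt19.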

Additional observations from a re-analysis of the deposited data

Results flagged for a closer look

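A gap test within groups (the distance of the highest or lowest library to its nearest neighbour, as a share of the group's range) was run on 74 groups, 37 members in WT and in E-cad-KO, and 3 passed the 95% critical value of Dixon's table for their size. Chance flags about 1 in 20 groups. Plxna2 in WT had a ratio of 0.929, with 5.53 CPM in WT 4 and at most 2.44 CPM in the other WT libraries. Sema6a in E-cad-KO had a ratio of 0.779, with 37.6 CPM in E-cad-KO 2 and at most 25.7 CPM in the others. Sema6c in WT had a ratio of 0.885, with 1.18 CPM in WT 2 and at least 2.04 CPM in the others.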

How the results depend on the processing

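Of the 37 members, 26 kept the sign of their log2 fold change in all 18 refits and 11 changed it in at least 1. The 15 members named in full by rule were among the 26, but 14 of them were picked by small p, which favours a steady sign. Of the genes added after their values were seen, Efna3 changed sign in 6 refits, Nrp1 in 3, and Plxnd1 and Sema7a in 1 each. Members called were 0 by edgeR, 6 by DESeq2 (Efnb2, Nrp2, Plxna1, Plxnb2, Sema3c and Sema3f), 3 by limma-voom (Plxna1, Sema3c and Sema3f), 1 without both WT 1 and WT 4 (Plxna1) and 0 to 1 with single libraries left out (Sema3f without WT 1, Plxna1 without WT 4). Genes called were 244, against 1206 by DESeq2, 511 by limma-voom, 79 without both WT 1 and WT 4 and 9 to 334 with single libraries left out. Partner genes called were 1, against 5 by DESeq2, 2 by limma-voom, 0 without both WT 1 and WT 4 and 0 to 1 with single libraries left out. With the replicate number as a block 0 members, 0 genes and 0 partner genes were called. Pairing by number was not seen in the values: same-numbered deviations correlated at -0.32, 0.23, -0.03 and 0.28, and 1 of 4 WT libraries correlated best with its own number. Correlations of so few libraries cannot settle whether same-numbered libraries shared a preparation, and E-cad-KO 5 has no WT library of its number. The cause of the moves between refits was not tested.

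Other size factors, filters, dispersions and member minimums kept 0 members called. Upper-quartile scaling turned the split of called genes from 157 higher and 87 lower to 123 and 151, and left 21 of 37 members positive. On unscaled library totals, chosen after seeing the data, 7 members did not overlap in place of 2 (Efna4, Efnb2, Nrp2, Plxnb2, Sema3c, Sema3f and Sema4d), beside 8.83% of all tested genes. In the smallest library 1 CPM was 44.9 counts, and no relation of depth to the spread was tested.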
